A study of Homo sapiens with 7 samples.

Results

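The genes described here encode the proteins of the cytosolic ribosome, the machine that translates mRNA outside the mitochondria. They were chosen by name, as rows whose symbol follows the RPL and RPS pattern, with RPLP0, RPLP1, RPLP2 and RPSA, and by a mean of at least 1 TPM (an abundance corrected for transcript length and scaled to the same total in every library). The pattern matched 84 of the 60234 rows of the deposited table, and 82 of these reached the minimum, 32 of the small (40S) and 50 of the large (60S) subunit. The muscle paralog RPL3L and the testis paralog RPL10L did not: their highest levels in any of 6 libraries were 0.086 and 0.60 TPM. Poly-A RNA came from cardiomyocytes derived from WTC-11, an established human induced pluripotent stem cell line and the only line used. The cells had matured for 35 days before they received an antisense oligonucleotide (ASO), a synthetic strand complementary to an RNA, at 2 uM for 96 h without a transfection step, per the labels. The control group received a scrambled ASO (3 libraries) and the other group an ASO against MYH7B (4 libraries). The labels do not say that libraries of a group came from separate cultures, so p-values measure only the spread between these libraries.

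Ribosomal proteins are made in matched amounts, because each ribosome holds a fixed set of them and most are needed for assembly. Their mRNAs are short and very abundant, and most begin with a cytosine inside a run of pyrimidines at the cap, the terminal oligopyrimidine (TOP) tract, through which mTORC1 and LARP1 control translation and stability. In heart muscle, ribosome content sets the capacity for protein synthesis during growth of the cell, and several ribosomal proteins have paralogs with tissue-restricted expression.

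A pyrimidine tract stood at the annotated start of most, though not all, of the genes that could be examined. It was read from RefSeq promoter windows (GRCh38.p14, 250 bases before to 50 after the annotated start), which matched 66 of the 82 genes. The sequences below run 5′ to 3′ from 20 bases before the annotated start to the tenth transcribed base; capitals mark the longest run of C and T that touches the 11 bases around the start. RPL35 is shown because it passed the test. RPS23 and RPS27A are shown for an unadjusted p under 0.05, although neither passed after adjustment. RPLP0, RPL39 and RPL41 are abundant members that did not pass either, and 3 paralogs stand beside their partners.
RPL35 (chr9:124861948-124861977, minus strand): aggtcagccccgcctaCTTCCTCTTTCCCT
RPS23 (chr5:82278345-82278374, minus strand): ctccttcctgcggtgCTTCTCTCTTTCgct
RPS27A (chr2:55231883-55231912, plus strand): cacactaaggagtgacacacaagaCCCaga
RPLP0 (chr12:120201102-120201131, minus strand): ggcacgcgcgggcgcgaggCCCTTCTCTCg
RPL39 (chrX:119791621-119791650, minus strand): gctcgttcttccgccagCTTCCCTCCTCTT
RPL41 (chr12:56116613-56116642, plus strand): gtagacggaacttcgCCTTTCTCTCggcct
RPL22 (chr1:6199586-6199615, minus strand): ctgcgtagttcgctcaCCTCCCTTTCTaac
RPL22L1 (chr3:170870186-170870215, minus strand): gaccgcgcggccgtagCTTCCTCTCTgctc
RPL26 (chr17:8383184-8383213, minus strand): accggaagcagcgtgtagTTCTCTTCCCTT
RPL26L1 (chr5:172958709-172958738, plus strand): caggcagtcttccaggggTCggcgaacgaa
RPS27 (chr1:153990742-153990771, plus strand): gcaggatttccgctttcgCTCCTTTCCggc
RPS27L (chr15:63157468-63157497, minus strand): cccggaagttgatgCCgagcgcagatcgct

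A run of at least 8 pyrimidines stood at the start of 48 of the 66 matched genes (72.7%), against 11.3% of the 27305 promoters of the table. The run was 15 bases long in RPL35, 12 in RPS23, 22 in RPL39 and 10 in RPL41; those of RPL35, RPL39 and RPL26 go on past the printed window. It was 3 bases in RPS27A. Of the paralogs, RPL22L1 had a run of 10 bases beside 11 in RPL22, whereas RPL26L1 and RPS27L had 2 each beside 14 in RPL26 and 9 in RPS27. The annotated first base was C in 47 of the 66 genes (71.2%) and in 15.0% of all promoters. Among other short motifs searched on both strands of the 300 bases, CCGGAAG was present in 34.8% of the matched genes and 10.7% of all promoters, AAGATGGCG in 9.09% and 1.85%, CCAAT in 31.8% and 35.7%, and TATAAA in 9.09% and 11.95%. The RPL35 window held CCAAT and none of the other 3. The 48 genes with a run had a median log2 fold change of -0.026 with the MYH7B ASO and the 18 without had -0.050.

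**Figure D1:**
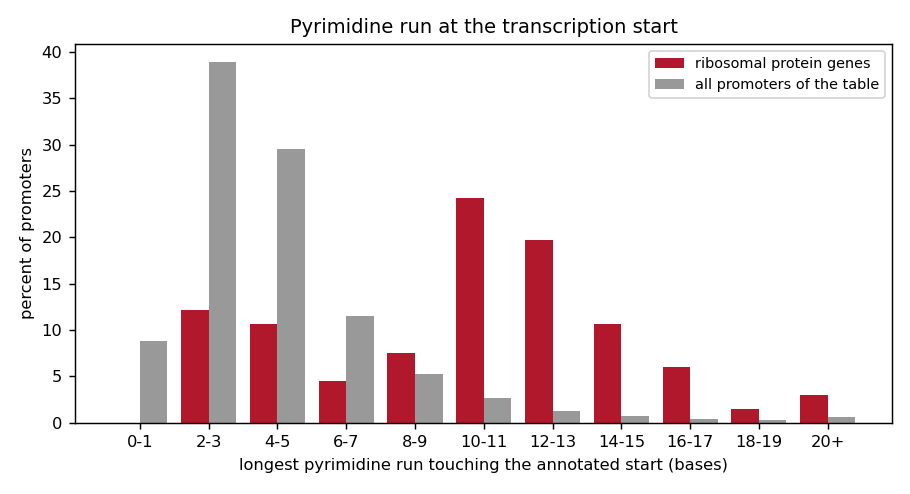
Percent of promoters (y axis) by the length in bases of the longest pyrimidine run touching the annotated start (x axis), for 66 ribosomal protein genes and for all 27305 promoters of the RefSeq table. Most ribosomal protein genes have runs of 8 bases or more, which 11.3% of all promoters have.

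The comparison used the 3 scrambled ASO libraries and MYH7B ASO replicates 2, 3 and 4. The column of MYH7B ASO replicate 1 follows the row order of another annotation release and was put in order for the 7-library values. That library also stood apart in composition: mitochondrially encoded genes held 17.2% of its TPM (27.4% to 33.6% in the others), RN7SL, RMRP and RPPH1 RNAs 14.3% (0.93% to 6.20%), and 14823 genes reached 1 TPM (15290 to 16207). In the 6 libraries MYH7B, the target, had 23.0, 36.5 and 25.1 TPM with the scrambled ASO and 9.30, 5.65 and 6.31 TPM with the MYH7B ASO (log2 fold change -1.85, SE 0.24, limma adjusted p = 0.0109). It stood at 1.29 TPM in replicate 1, and it was not called without MYH7B ASO replicate 4 (limma adjusted p = 0.0618). Cardiomyocyte markers summed to 8763 to 9788 TPM in the scrambled ASO group and 7057 to 8236 TPM in the MYH7B ASO group, and none of the 8 was called by limma (5 at an unadjusted p under 0.05). Those 5 (ACTN2, MYH7, MYL7, NPPA and RYR2) were all lower with the MYH7B ASO. Over the list, 6 log2 fold changes were negative and 2 positive. Of the fibroblast and stroma markers 2 of 8 were called lower (COL1A2 and LUM; summed range 2881 to 5173 TPM against 1344 to 2071 TPM), and 7 of the 8 had an unadjusted p under 0.05. Collagens dominate that sum, and PDGFRA (log2 fold change 0.60) and TCF21 (0.71) had higher values without overlap and were not called. Of the smooth muscle markers 1 of 5 was called lower (MYH11; summed range 955 to 1352 TPM against 554 to 737 TPM), 4 had an unadjusted p under 0.05, and CNN1 had a positive log2 fold change (0.24). No tested marker was called in the endothelial list (2 of 5 tested), the epithelial and endoderm list (4 of 6), the pluripotent list (2 of 5) or the proliferation list (5 of 5), with PECAM1, CDH5, VWF, AFP, FOXA2, NANOG, LIN28A and SOX2 under a mean of 1 TPM. Their summed ranges, scrambled ASO against MYH7B ASO, were 17.5 to 21.8 against 11.5 to 17.2 TPM for the endothelial list, 1537 to 1747 against 1689 to 2129 TPM for the epithelial list, 3.23 to 3.79 against 2.69 to 3.49 TPM for the pluripotent list and 108 to 116 against 78.8 to 111 TPM for the proliferation list. In these bulk libraries, fewer cells of a type and less RNA per cell cannot be told apart. TPM keeps no record of sequencing depth, which is therefore unknown.

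Ribosomal protein mRNAs made up a large part of the measured transcripts in both groups. Together they held 15.7%, 17.9% and 19.2% of TPM in scrambled ASO replicates 1 to 3 and 16.7%, 17.7% and 16.4% in MYH7B ASO replicates 2 to 4. The group values overlapped, with means of 17.6 ± 1.79% (SD, n = 3) and 16.9 ± 0.71% (SD, n = 3). Their difference, -0.66 percentage points, was smaller than the SD of the scrambled ASO group; it was -1.62 without scrambled ASO replicate 1 and 0.15 without replicate 3. Mitochondrially encoded genes, which take part of the same total, held 27.4% to 33.2% and 31.2% to 33.6% of TPM in the groups. The library with the highest ribosomal protein share, scrambled ASO replicate 3, had the lowest mitochondrial share. Of the TPM outside mitochondrial genes, ribosomal protein mRNAs held 25.6 ± 1.88% and 25.1 ± 0.60% (SD, n = 3 each). The balance of the subunits was steady, with a summed 60S to 40S ratio of 1.39 ± 0.038 and 1.40 ± 0.024 (SD, n = 3 each).

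**Figure D2:**
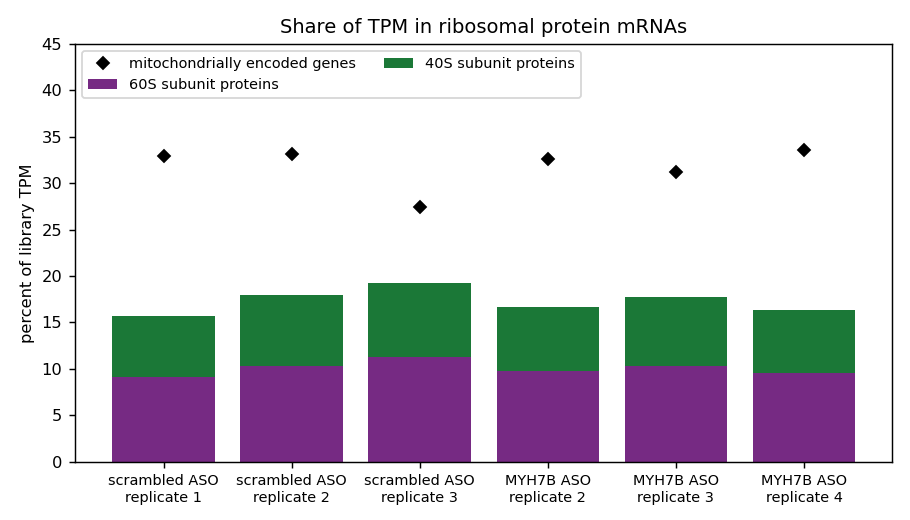
Percent of library TPM (y axis) held by ribosomal protein mRNAs of the 60S and 40S subunits (stacked bars) and by mitochondrially encoded genes (diamonds) in each of the 6 libraries. The stacked bars reach 15.7% to 19.2% with the scrambled ASO and 16.4% to 17.7% with the MYH7B ASO.

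The levels of the single genes, as means over the 6 libraries, ran from 27.2 to 5571 TPM with a median of 2046 TPM. Of the 82 genes, 59 were among the 100 most abundant rows of the table. The 5 with the highest levels were RPL41, a very short basic peptide of the 60S subunit, at 5571 TPM; RPS23, a protein of the decoding centre, at 5440 TPM; RPS29 at 5428 TPM; RPL31, at the rim of the peptide exit tunnel, at 4397 TPM; and RPL13A at 4242 TPM. The 5 with the lowest were all named as paralogs or relatives of another member: RPL39L at 27.2 TPM, RPL7L1, a ribosome assembly factor, at 47.6 TPM, RPL22L1 at 49.4 TPM, RPL26L1 at 56.5 TPM and RPS27L at 134 TPM. Without those 5, the other 77 genes ranged over 11.3 times in level, from 492 TPM, and 72 of them exceeded 1000 TPM. Their mRNAs were short: the median length of annotated coding transcripts was 685 bases over the 82 genes and 1830 bases over 12914 tested genes that had such a transcript in GENCODE 29. The median coefficient of variation between libraries was 12.7% with the scrambled ASO and 7.58% with the MYH7B ASO.

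RPL35 was the only ribosomal protein gene called in the comparison of 6 libraries. It encodes a 60S protein at the rim of the exit tunnel, near the place where factors that act on the emerging peptide dock. The deposited identifier is ENSG00000136942.15. GENCODE 29, which holds another version of that identifier, places the gene on the minus strand of chromosome 9 at 124857880 to 124861981 (GRCh38). RPL35 had 2074, 2409 and 3146 TPM in scrambled ASO replicates 1 to 3 and 1136, 1144 and 1031 TPM in MYH7B ASO replicates 2 to 4. The groups did not overlap, and the MYH7B ASO libraries lay close together. The scrambled ASO mean was 2543 ± 549 TPM (SD, n = 3), and the MYH7B ASO mean of 1104 ± 62.8 TPM (SD, n = 3) was 43.4% of it. On the log2(TPM + 1) scale this is a change of -1.18 (SE 0.16, 95% interval from -1.55 to -0.82, limma adjusted p = 0.0121). COL1A2, LUM and MYH11, markers of stroma and smooth muscle, were called lower in the same libraries. So was ACTC1 of heart muscle, described below, and the summed cardiomyocyte markers were lower without overlap. The part of these genes in the RPL35 result was not tested.

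RPL35 was also lower relative to the other ribosomal protein mRNAs of the same library. Its log2 level minus the median of the other 81 genes was 0.14, 0.18 and 0.40 in the scrambled ASO libraries and -0.77, -0.89 and -0.88 in the MYH7B ASO libraries. All 3 treated values lay below all 3 control values, where 3 against 3 libraries allow no exact p under 0.1. RPL35 was picked by its call in these same libraries, so this separation restates the call and is no further support. The difference of the means was -1.08, from 0.24 ± 0.14 to -0.84 ± 0.065 (SD, n = 3 each). In rank among the 82 genes, RPL35 went from positions 28, 30 and 14 to positions 66, 67 and 68. In the reordered MYH7B ASO replicate 1, RPL35 stood at 1822 TPM, below the 3 scrambled ASO libraries and above the 3 other libraries of its group, with rank 45 and a relative level of -0.077. That library differed in composition and also had the lowest MYH7B level, 1.29 TPM against 5.65 to 9.30 TPM in the rest of its group. Its TPM may also have been computed on another annotation, which limits the comparison of single genes with the rest. Over the 7 libraries, RPL35 was not called, at a log2 fold change of -1.002 (SE 0.23, limma adjusted p = 0.0877). It was not called without MYH7B ASO replicate 4 either (limma adjusted p = 0.0797).

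The authors' deposited table put RPL35 at -1.04 (shrunken log2 fold change; adjusted p-value 6.29e-12) and had none of the other 81 below an adjusted p-value of 0.05. Of all genes that have an adjusted p-value there, 8.71% were below 0.05. The lowest adjusted p-value of the other ribosomal protein genes in the authors' deposited table was 0.356, and their log2 fold changes ran from -0.34 to 0.26. The sources used here do not say which libraries that table rests on. RPS14 was at 0.0069 there, beside -0.068 in the 6-library fit and 0.39 with MYH7B ASO replicate 1 added. The authors' values come from the same series and are no independent support for the call of RPL35.

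**Figure D3:**
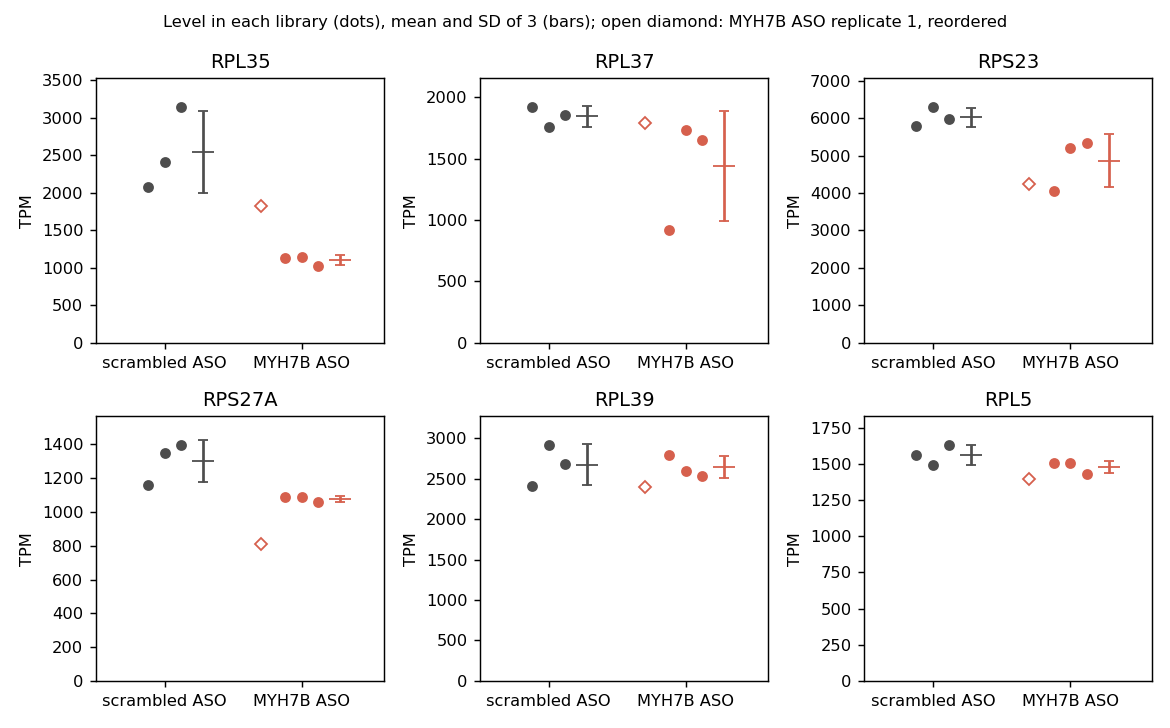
TPM (y axes, from 0) of 6 ribosomal protein genes in the scrambled ASO and MYH7B ASO libraries, with dots for single libraries, a dash and bar for the mean and SD of 3, and an open diamond for the reordered MYH7B ASO replicate 1, outside the mean. RPL35 shows 3 dots between 1031 and 1144 TPM beside controls between 2074 and 3146 TPM, while RPL39 and RPL5 overlap between groups.

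Genes around RPL35 were examined after its values were seen. WDR38, on the plus strand from 124853417 to 124857890, overlaps the end of RPL35 and was too low to test. Of the 8 nearest tested genes, 4 on each side, none was called, with log2 fold changes from -0.72 to 0.53 (lowest limma adjusted p = 0.346). ARPC5L, an actin-nucleation subunit gene that starts 149 bases from RPL35 on the other strand, had 18.2 and 19.6 TPM and a log2 fold change of 0.089 (SE 0.20). Ribosomal protein genes have many near-identical processed pseudogenes, and how reads were divided among copies is not given in the sources used here. The 8 pseudogene rows of RPL35 reached at most 1.58 TPM in any of the 6 libraries. Over all members, 1142 pseudogene rows together held 1.80% as much TPM as their parents, and 3 rows (RPL23AP42, RPS28P7 and RPS2P5) held 89.1% of that. For single genes the share was far larger. RPL23AP42 averaged 1665 TPM over the 6 libraries beside 1037 TPM for RPL23A, and RPS28P7 735 TPM beside 1086 TPM for RPS28. RPS2P5 averaged 369 TPM beside 3359 TPM for RPS2. The levels of RPL23A and RPS28 may therefore depend on how reads were divided.

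Among all 15988 tested genes 265 (1.66%) were called, and 236 (1.48%) were called lower, so 1 of 82 (1.22%) is no higher than the share over all genes. RPL35 was the second most abundant of the called genes. Of the 127 tested genes above 1000 TPM, only RPL35 and ACTC1 (cardiac alpha-actin, named after its values were seen) were called. ACTC1 went from 3647 ± 74.9 to 2308 ± 112 TPM (SD, n = 3 each), a log2 fold change of -0.66 (SE 0.10, limma adjusted p = 0.0209).

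**Figure D4:**
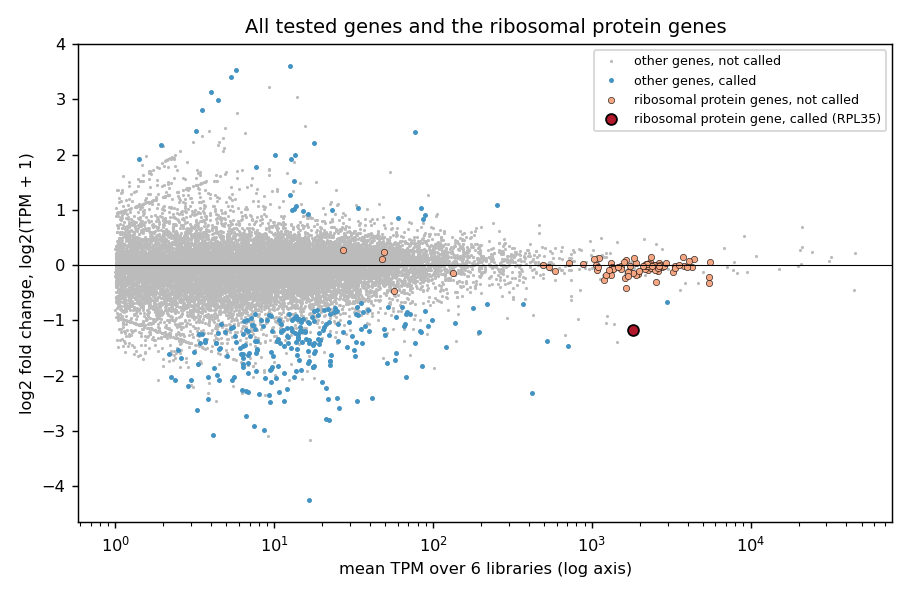
Log2 fold change on the log2(TPM + 1) scale (y axis) against mean TPM over 6 libraries (x axis, log scale) for 15988 tested genes, with ribosomal protein genes outlined. The 81 that were not called lie between -0.46 and 0.26, and RPL35 lies below them at -1.18.

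The other 81 genes had log2 fold changes between -0.46 and 0.26, and 72 of them between -0.2 and 0.2. The median over all 82 was -0.030, beside -0.044 over all tested genes. It changed sign with scaling: it was 0.027 after median-ratio rescaling and 0.024 after quantile normalization, so no direction is given for the family. The small subunit had a median of -0.036 and the large subunit of -0.026. Ribosomal protein genes had a median standard error of 0.13 against 0.24 over all tested genes. The fit lets the error follow the level of a gene, and other genes of equal abundance were not compared. For all 81, the 95% interval of the log2 fold change lay inside -1 to 1, and for 66 inside -0.5 to 0.5. The intervals of 79 lay wholly above that of RPL35, with RPL26L1 and RPL37 as the exceptions. These intervals bound the size of a change and do not show that levels were equal. The groups did not overlap for 6 of the 82 genes (7.32%), all lower with the MYH7B ASO, against 21.2% of all tested genes in either direction. These were RPL35, RPL26L1, RPL37, RPS23, RPS27A and RPL27.

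**Figure D5:**
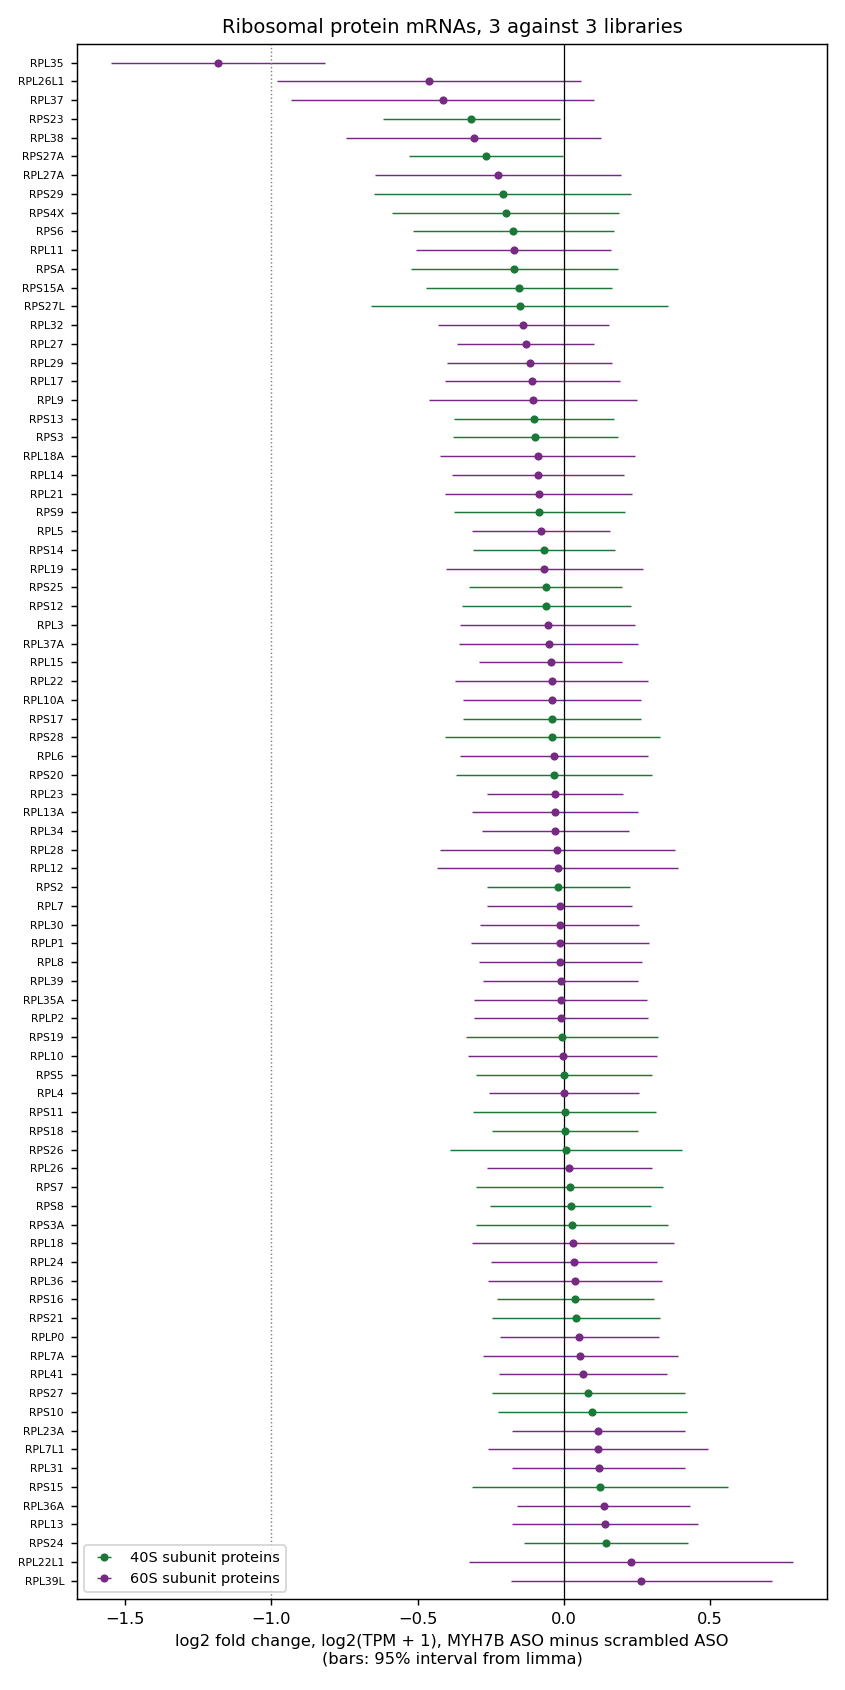
Log2 fold change (x axis, log2(TPM + 1) scale, MYH7B ASO minus scrambled ASO) with its 95% interval from limma for each of 82 ribosomal protein genes (y axis, ordered by change), coloured by subunit. RPL35 is at -1.18, left of the dotted line at -1, and the next gene, RPL26L1, is at -0.46.

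The genes next to RPL35 in the order of change did not pass the test, and a single library set the value of several. RPL26L1, a paralog of RPL26, had 93.4, 51.9 and 54.4 TPM with the scrambled ASO and 41.6, 49.8 and 47.8 TPM with the MYH7B ASO. Scrambled ASO replicate 1 stood high, and the log2 fold change of -0.46 became -0.19 without it. RPL37, a zinc-binding 60S protein, had 1921, 1754 and 1858 TPM and then 921, 1736 and 1651 TPM. MYH7B ASO replicate 2 stood low, and the log2 fold change of -0.41 (limma adjusted p = 0.440) became -0.12 without it.

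MYH7B ASO replicate 2 was also the lowest library for RPS29 and RPL38. RPS29, a zinc-binding protein of the small subunit, had 5369, 6135 and 5771 TPM with the scrambled ASO and 3606, 5996 and 5689 TPM with the MYH7B ASO. Without that library the log2 fold change of -0.21 became 0.022. RPL38, a small 60S protein named after its values were seen, had 1629 TPM in that library against 2606 and 2622 TPM in the other libraries of its group. With each library centred on its median ribosomal protein gene, 4 genes lay more than 0.5 on the log2 scale from their own mean in MYH7B ASO replicate 2 (RPL37, RPL38, RPS29 and RPL35), and 1 gene did in each of the other 5 libraries, which was RPL26L1 in scrambled ASO replicate 1 and RPL35 in the others.

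RPS23 and RPS27A were the other genes with an unadjusted p under 0.05, and neither passed across all genes. RPS23 had 5776, 6302 and 5969 TPM with the scrambled ASO and 4052, 5199.7 and 5343 TPM with the MYH7B ASO, a log2 fold change of -0.32 (SE 0.13, limma adjusted p = 0.308). RPS27A, which is made as a fusion with ubiquitin, had 1160, 1349 and 1398 TPM and then 1090.1, 1089 and 1058 TPM, a log2 fold change of -0.27 (SE 0.11, limma adjusted p = 0.320). At the other end of the order were RPL39L, RPL22L1 and RPS24, with log2 fold changes of 0.26, 0.23 and 0.14 (limma adjusted p = 0.578, 0.70 and 0.617).

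RPL5 and RPL11, which bind 5S rRNA and, when free of the ribosome, the p53 regulator MDM2, were not called. RPL5 had 1563, 1494 and 1634 TPM and then 1505, 1506 and 1433 TPM, a log2 fold change of -0.077 with a 95% interval from -0.31 to 0.16. RPL11 had a log2 fold change of -0.17, with an interval from -0.50 to 0.16. The stalk, which recruits the GTPases of translation, is built of RPLP0, RPLP1 and RPLP2 on RPL12. RPLP0 had 2289 ± 214 and 2370 ± 158 TPM (SD, n = 3 each), and the log2 fold changes of RPLP1 and RPLP2 were -0.012 and -0.011. RPS6, the 40S protein phosphorylated by S6 kinases, had a log2 fold change of -0.17, as had RPSA, which lines the mRNA exit. Neither was called (limma adjusted p = 0.627 and 0.645).

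RPL35 was the 1 called gene among the 7 genes listed for the rim of the exit tunnel. In that list RPL39, which lines the tunnel itself, had 2412, 2919 and 2679 TPM with the scrambled ASO and 2798, 2593 and 2539 TPM with the MYH7B ASO, so its groups overlapped. RPL31, opposite in the rim, had a log2 fold change of 0.12 and RPL26, also a rim protein, of 0.019. Proteins that have a counterpart in bacteria were called in 0 of 15 cases in the small subunit (median log2 fold change -0.068) and 1 of 18 in the large subunit (RPL35; median -0.030). An unadjusted p under 0.05 was reached by 3 of the 82 genes and by 2435 of all 15988 tested genes. The unadjusted counts of the lists stand beside that share over all genes. None of the 8 genes listed for the mRNA path of the 40S subunit was called (median -0.054; 1 at an unadjusted p under 0.05).

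The paralogs stayed a minor part of their pairs in both groups. RPL22L1 was at 9.25% of the level of RPL22, RPL36AL at 10.3% of RPL36A, RPS27L at 3.28% of RPS27, RPL26L1 at 2.55% of RPL26 and RPL39L at 1.025% of RPL39, as means over 6 libraries. RPL22L1 had 40.04, 34.8 and 62.6 TPM with the scrambled ASO and 41.03, 60.3 and 57.5 TPM with the MYH7B ASO, beside 487, 488 and 658 TPM and then 512, 545 and 514 TPM for RPL22. The log2 ratio of RPL22L1 to RPL22 was -3.57 ± 0.20 and -3.30 ± 0.27 (SD, n = 3 each), and that of RPL39L to RPL39 was -6.71 ± 0.12 and -6.44 ± 0.25 (SD, n = 3 each). The ratio of RPS27L to RPS27 was -4.82 ± 0.48 and -5.05 ± 0.43, and that of RPL26L1 to RPL26 was -5.08 ± 0.61 and -5.56 ± 0.24 (SD, n = 3 each). Each of these 4 ratios overlapped between groups, as did that of RPL36AL to RPL36A (-3.22 ± 0.21 and -3.33 ± 0.18, SD, n = 3 each). RPL3 stood at 2217 TPM and RPL10 at 2692 TPM, beside the near absence of RPL3L and RPL10L in these libraries. Reads shared by paralogs may have been divided between them by the counting method, which is not given in the sources used here.

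Ribosomal proteins outside the name pattern and the rest of the translation machinery showed few calls. FAU, which encodes the 40S protein eS30 as a fusion, had 1133 ± 170 and 1311 ± 189 TPM, and RACK1, a 40S scaffold protein, 3089 ± 353 and 2922 ± 306 TPM (SD, n = 3 each). Neither was called, nor was RPL36AL. Of 10 tested elongation genes none was called (median log2 fold change -0.084; 1 at an unadjusted p under 0.05). Of 40 initiation genes 1 was called, EIF4G3, a scaffold of the cap-binding complex, and 7 had an unadjusted p under 0.05 (list median -0.051). EIF4G3 fell from 20.7 ± 5.39 to 7.66 ± 0.83 TPM (SD, n = 3 each), a log2 fold change of -1.30 (SE 0.21, limma adjusted p = 0.0251). The 23 other genes listed for a TOP tract, some of which are also in the lists above, had no call, 1 gene at an unadjusted p under 0.05 and a median of -0.067.

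Genes that build ribosomes were not called either. None of 75 tested biogenesis factors passed (3 at an unadjusted p under 0.05; 28 with a negative and 47 with a positive log2 fold change, median 0.10). SENP3, a nucleolar SUMO protease, had the largest positive value in that list, 0.78, and MDN1, an assembly ATPase, the largest negative one, -0.76 (limma adjusted p = 0.0882 and 0.373). None of 20 RNA polymerase I genes, 20 mTORC1 and TOP regulator genes and 16 snoRNA host genes was called, with list medians of 0.044, -0.14 and -0.012 and 3, 5 and 0 genes at an unadjusted p under 0.05. All list medians stand beside -0.044 over all tested genes.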

How the data were processed

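Poly-A RNA from WTC-11 cardiomyocytes was sequenced in 7 libraries. The authors deposited TPM per gene and library, and a comparison table with a mean normalized value, log2 fold changes, a test score, p-values and adjusted p-values. Per the submitters' processing notes DESeq2 and GRCh38.p13 were used; the aligner, quantifier and annotation release are not given in the sources used here.

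The column of MYH7B ASO replicate 1 fills 58721 positions. Assigned to the sorted gene identifiers of GENCODE 29, its median correlation with the other libraries rose from 0.408 to 0.955.

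The test was limma 3.58.1 under R 4.3.3 (lmFit, eBayes with trend, 2-sided) on log2(TPM + 1) of genes whose mean reached 1 TPM, with Benjamini-Hochberg adjustment over all tested genes. A gene is called at an adjusted p under 0.05. Fold changes on this scale understate those of low genes. The fit was tested on simulated data.

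Members and lists were chosen with earlier results of these data known. Named genes were the called members, the 5 highest and 5 lowest by level, the 3 with the largest change in each direction, paralog pairs, proteins with set roles, and called genes of each list. Alternatives covered pseudocount, filters, scaling, composition, variance models, the replicate number and the libraries.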

Additional observations from a re-analysis of the deposited data

Results flagged for a closer look

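Among 83 measures looked at over the 4 MYH7B ASO libraries (the level of each ribosomal protein gene and their summed share), 7 held a value far outside the remaining ones. The rule would flag about 1 in 20 independent measures by chance. These measures come from the same libraries and are not independent, so the count cannot be read against that rate. In 5 of them the value was that of the reordered replicate 1, which also differed from the other libraries in its mitochondrial share. RPL35 stood at 1822 TPM there, against 1031 to 1144 TPM in the other 3 libraries. RPS14 stood at 4728 TPM (1238 to 1371 TPM in the others), RPS9 at 4899 TPM (2302 to 2683 TPM), RPS25 at 1039 TPM (2081 to 2144 TPM) and RPS27A at 813 TPM (1058 to 1090.1 TPM). In MYH7B ASO replicate 2, RPL37 stood at 921 TPM, against 1651 to 1787 TPM in the others, and RPS21 at 3377 TPM, against 2799 to 2872 TPM.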

How the results depend on the processing

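RPL35 was lower with the MYH7B ASO under all 23 alternatives, with log2 fold changes from -1.34 to -1.002, and was called in 17 of them. No other ribosomal protein gene was called in any. The count of called ribosomal protein genes was 0, and RPL35 was not called, with no filter on low values (-1.18, limma adjusted p = 0.132), without the variance trend (-1.18, 0.0601) and with the 7 libraries (-1.002, 0.0877). Leaving out each library in turn, the count ran from 0 to 1 and RPL35 from -1.32 to -1.02, with limma adjusted p from 0.0208 to 0.0797, the last without MYH7B ASO replicate 4. With the replicate block by title number RPL35 had -1.27 (limma adjusted p = 0.331) and by description number -1.34 (0.72), with a count of 0 in each. Each numbering gives 2 pairs and leaves 1 residual degree of freedom, and no gene of the table was called under either block, where unadjusted p under 0.05 was reached by 1718 and 1096 genes. Deviations of libraries with the same title number correlated at 0.076 and 0.11, above those with different title numbers (-0.073 to 0.041). By description number they correlated at -0.073 and -0.039. All these values were small and do not settle whether the title numbers pair the libraries. The main fit took the libraries as unpaired. Over all genes the calls ran from 0 under the blocks to 362 with at least 1 TPM in every library, and were 40 with no filter, 150 without trend, 53 to 149 with a library left out and 170 with 7 libraries, against 265. The median log2 fold change of the ribosomal protein genes ran from -0.11 to 0.048 over all alternatives.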
